A study of Mus musculus with 8 samples.

Results

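The mitochondrial ribosomal proteins were followed in the transcriptomes of TNFR2+ and TNFR2- regulatory T cells (Tregs). The members were all genes of the deposited table whose mouse symbol starts with Mrpl or Mrps and a number, pseudogenes excluded. Of the 20172 identifiers in the table, 20008 had a symbol and 78 were members, 49 named for the large subunit and 29 for the small subunit of the ribosome. RNA was sequenced from spleen Tregs of *Foxp3* YFP-cre mice, in which a fluorescent reporter and the Cre recombinase are made from the *Foxp3* gene, so that every library, TNFR2- included, came from cells carrying this allele. YFP+ CD4 T cells had been sorted as TNFR2+ or TNFR2-, with 4 libraries (replicates 1 to 4) of each, and no treatment was given in the labels. Young adult mice of both sexes were used in the study, and the labels do not give the age or sex behind each library. The n that the study gives for this comparison equals the libraries per group, but no source says that each library came from its own mouse, and if they did not, p-values measure only the spread between these samples, which may be technical. The values are counts that the authors normalized between libraries, and they are called normalized counts below.

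The mitochondrion has its own ribosome, which translates the few mRNAs encoded in mitochondrial DNA into core subunits of the respiratory chain. Its ribosomal RNAs are made inside the organelle, whereas all of its proteins are encoded in the nucleus, translated in the cytosol and imported. Part of these proteins have counterparts in the bacterial ribosome, and the others are specific to mitochondria. Tregs are known for their reliance on mitochondrial respiration.

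The normalized counts summed to 9576920 to 10295226 in the TNFR2+ libraries and to 10483291 to 11492762 in the TNFR2- libraries. *Tnfrsf1b*, which encodes TNFR2, lay between 1840 and 3148 normalized counts in TNFR2+ and between 1177 and 1563 in TNFR2- Tregs, which is the sort read back at the RNA level. The 7 Treg markers checked, *Foxp3* and *Il2ra* among them, summed to 27144 to 30822 and to 20253 to 24606, respectively. Genes of dividing cells (10 of 10 in the table, such as *Mki67* and *Top2a*) summed to 8460 to 12127 normalized counts in TNFR2+ and to 3214 to 5124 in TNFR2- Tregs, without overlap. The cytotoxic lymphocyte markers in the table (4 of 7, *Cd8a* and *Nkg7* among them) summed to 106 to 188 and to 47.4 to 104, also without overlap. B cell markers (7 of 9; 375 to 474 against 158 to 402), myeloid markers (4 of 8; 175 to 232 against 129 to 189), the platelet marker *Itga2b* (12.2 to 221 against 31.2 to 178) and the erythroid marker *Alas2* (0 to 12.1 against 0 to 10.6) overlapped between the groups. The part of these cells and of cell division in the values below was not tested. In bulk RNA, fewer cells of a type and less RNA per cell cannot be told apart.

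None of the 78 mitochondrial ribosomal protein genes passed the threshold of 0.05 on the adjusted p between TNFR2+ and TNFR2- Tregs, in limma fitted to log2(normalized count + 1) over 13990 genes. Over all genes tested, 4.52% were called higher and 3.39% lower in TNFR2+ Tregs, and among the genes within the range of mean levels that the members span (16.7 to 460 normalized counts) 5.58% were called in either direction. With no adjustment, 9 members were higher and 2 lower in TNFR2+ Tregs at p under 0.05, where 12.3% of all genes were higher and 10.7% lower. The 4 TNFR2+ libraries lay above the 4 TNFR2- libraries in 6 members and below them in 0 members, against 8.08% and 7.29% of all genes. These shares are near or below the background. The count of 0 called members became 1 (*Mrpl16*) when the variances were moderated without an intensity trend, and 2 (*Mrpl40* and *Mrps6*) when libraries were scaled to their total without mitochondrially encoded genes, *Gm26917* and *Gm42418*. The smallest adjusted p of a member was 0.0639, for *Mrpl40*, and the standard errors of the members' log2 fold changes ran from 0.15 to 1.04, with a median of 0.35.

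As a list, the members leaned toward TNFR2+ Tregs by a small amount. The log2 fold change (TNFR2+ over TNFR2-) was above 0 in 53 members and below 0 in 25. That is 67.9% of members above 0, against 49.3% of all genes tested and 52.5% of those within the members' range of levels. The median was 0.20 for the members, -0.01 for all genes and 0.04 for genes within the members' range of levels. The median stayed between 0.14 and 0.28 under every alternative run, including each library left out in turn. Per library, the median log2 level of the members was 6.83 to 7.15 in TNFR2+ and 6.69 to 6.94 in TNFR2- Tregs, so the groups overlapped. The 3 members with a log2 fold change beyond 1 and no overlap between the groups were *Mrpl40*, *Mrpl32* and *Mrps36*.

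**Figure D1:**
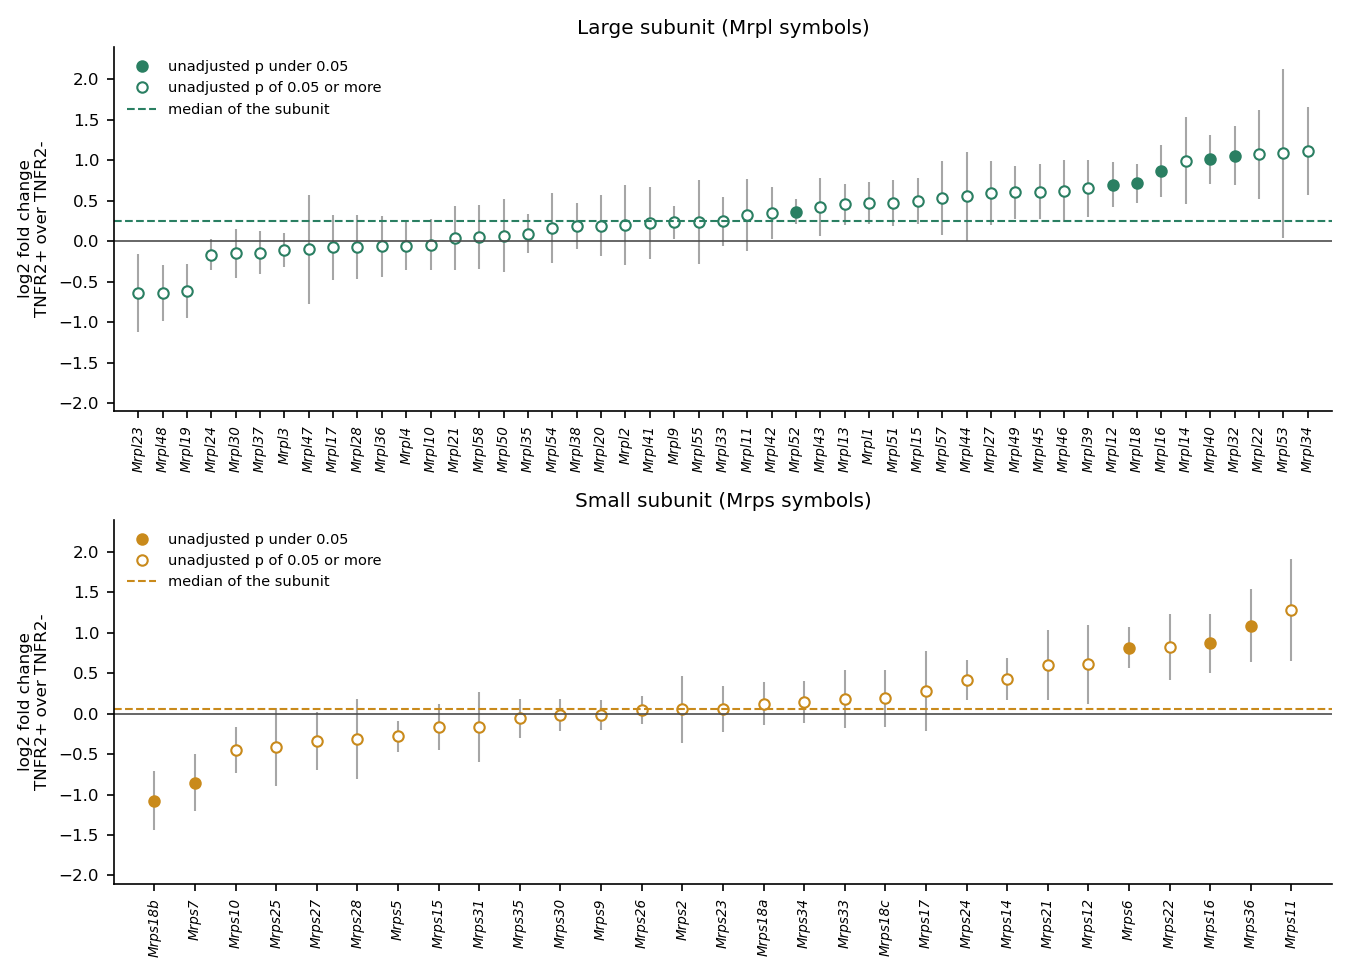
Log2 fold change (TNFR2+ over TNFR2-) of the 49 large and 29 small subunit members, ordered within each subunit, with bars of 1 standard error from limma. Filled points have an unadjusted p under 0.05, the dashed line is the median of the subunit (0.24 for the large and 0.06 for the small), and the 11 filled points lie between -1.07 and 1.09.

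The large subunit was compared with the small one as the naming rule implies. Of the 49 large subunit members 36 had a log2 fold change above 0, with a median of 0.24, and of the 29 small subunit members 17 had one, with a median of 0.06. The difference of the medians was 0.19, and it was 0.31 without TNFR2+ replicate 1, 0.29 without TNFR2- replicate 4 and 0.13 without TNFR2- replicate 1. In each library the mean log2 level of the large subunit members was compared with that of the small. In TNFR2+ Tregs the large subunit mean was 6.79, 7.07, 6.83 and 6.94 in replicates 1 to 4, and in TNFR2- Tregs it was 6.40, 6.60, 6.55 and 6.84. TNFR2- replicate 4 lay within the TNFR2+ range, and the other TNFR2- libraries lay below it. The small subunit mean was 6.83, 7.03, 6.90 and 6.82 in TNFR2+ and 6.65, 6.84, 6.65 and 6.90 in TNFR2- Tregs, with 2 TNFR2- libraries inside the TNFR2+ range. The large minus small difference per library was -0.04, 0.04, -0.07 and 0.12 in TNFR2+ and -0.25, -0.24, -0.10 and -0.06 in TNFR2- Tregs. The ranges met at TNFR2+ replicate 3 and TNFR2- replicate 4, so the balance of the subunits overlapped between the groups. Members are not replicates of a condition, and no test over them was run.

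**Figure D2:**
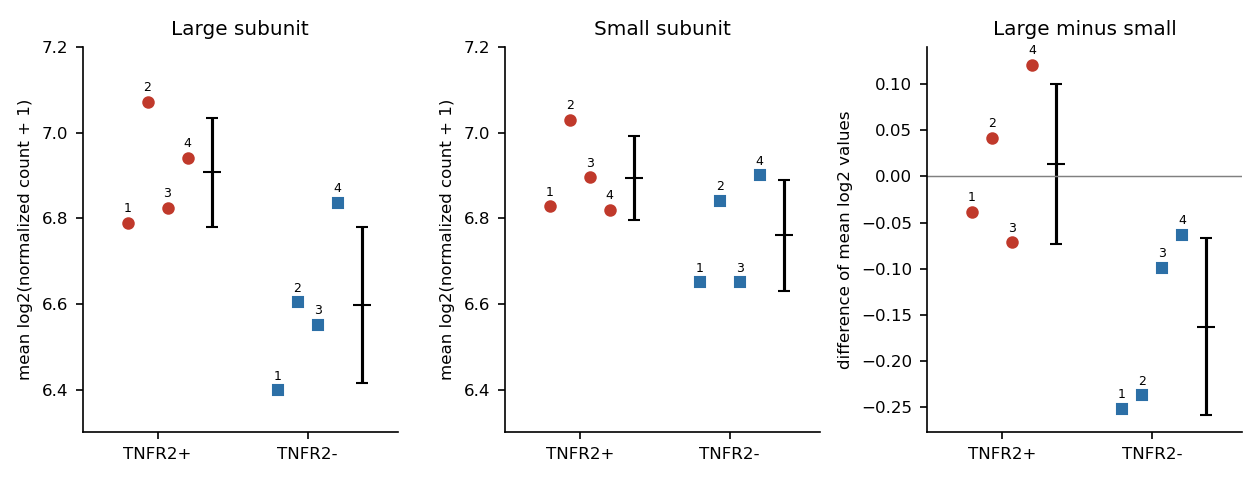
Mean log2(normalized count + 1) of the large subunit members, of the small subunit members, and their difference, 1 point per library (circles TNFR2+, squares TNFR2-, labelled by replicate), with the mean and SD of 4 libraries in black. The large subunit means reach from 6.40 to 7.07, and in each panel at least 1 TNFR2- library lies inside the TNFR2+ range.

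Place in the ribosome gave a similar split to the symbols. *Mrps30* and *Mrps18a* sit in the large subunit despite their names, and *Mrps36* is a subunit of the 2-oxoglutarate dehydrogenase complex rather than of the ribosome. Assigned this way, 51 large subunit proteins had a median of 0.23 and 26 small subunit proteins one of 0.05. Among large subunit proteins, the 21 that are specific to mitochondria were above 0 in 18 cases with a median of 0.36, and the 30 with a bacterial counterpart in 19 cases with a median of 0.22. Among small subunit proteins the order was the other way round, with 5 of 10 specific proteins above 0 (median -0.01) and 10 of 16 bacterial counterparts (median 0.24). These counts are descriptions, and the differences between them were not tested.

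Among large subunit members, *Mrpl40*, a mitochondrion-specific protein whose gene lies on chromosome 16, had the smallest p. It measured 114, 232, 112 and 132 normalized counts in TNFR2+ replicates 1 to 4 and 69.5, 68.2, 69.2 and 70.6 in TNFR2- replicates 1 to 4. The TNFR2- libraries were nearly level, every TNFR2+ library was higher, and TNFR2+ replicate 2 stood apart from its group. The log2 fold change was 1.01 ± 0.31 (SE, n = 4 per group), with a 95% interval of 0.34 to 1.68 and an adjusted p of 0.0639 in limma. The exact two-sided permutation p was 0.0286, the smallest that 4 against 4 libraries can give. Any gene whose groups do not overlap has this permutation p, so it adds nothing to the absence of overlap.

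*Mrpl32*, a counterpart of a bacterial protein that is cleaved by an inner membrane protease before it joins the ribosome, measured 114, 148, 83.1 and 110 normalized counts in TNFR2+ and 73.5, 56.2, 30.2 and 63.6 in TNFR2- Tregs. The groups did not overlap, and TNFR2- replicate 3 was the lowest library. Its log2 fold change was 1.05 ± 0.36 (SE; limma adjusted p = 0.0964). *Mrpl16*, also a bacterial counterpart, measured 97.3, 92.2, 105 and 85.5 against 40.5, 63.2, 58.1 and 47.5 normalized counts, again without overlap. Its log2 fold change was 0.87 ± 0.32 (SE; limma adjusted p = 0.118).

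*Mrpl52*, a mitochondrion-specific protein, had the narrowest spread among the members with an unadjusted p under 0.05. It measured 505, 536, 510 and 518 normalized counts in TNFR2+ and 407, 401, 360 and 446 in TNFR2- Tregs. No TNFR2- library reached the TNFR2+ range, although the log2 fold change was only 0.36 ± 0.15 (SE; limma adjusted p = 0.183). *Mrpl18*, which sits in the central protuberance of the large subunit and is named here after its values were seen, measured 234, 431, 308 and 334 against 177, 196, 158 and 259 normalized counts. TNFR2- replicate 4 lay above TNFR2+ replicate 1, and the log2 fold change was 0.71 ± 0.24 (SE; limma adjusted p = 0.0919).

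**Figure D3:**
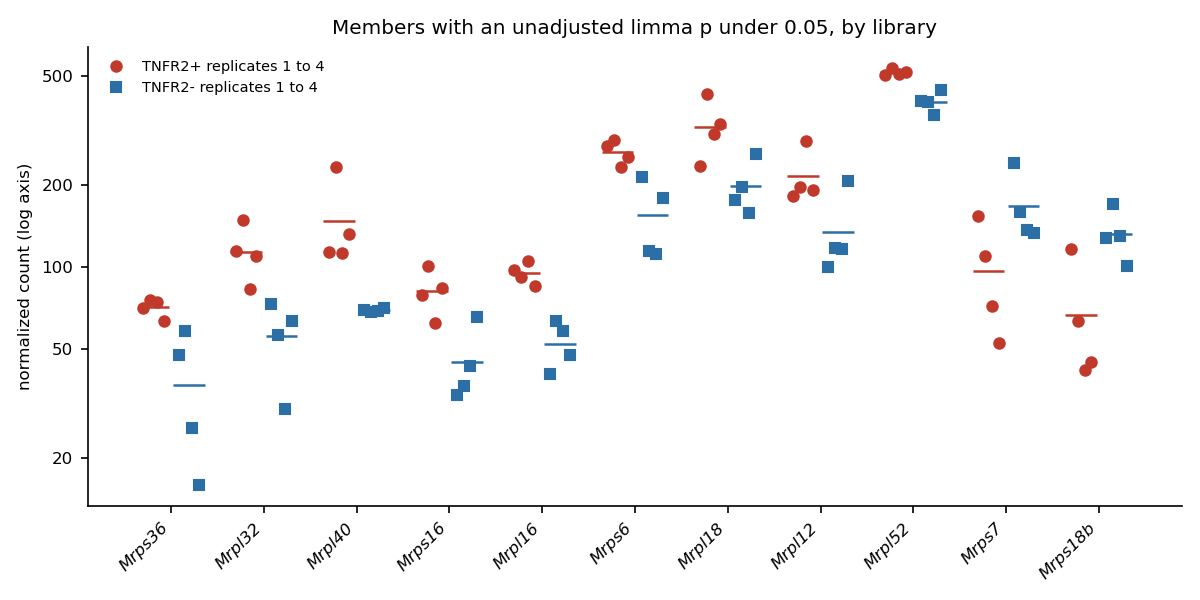
Normalized counts (log axis) of the 11 members with an unadjusted limma p under 0.05 in each of the 8 libraries, circles for TNFR2+ and squares for TNFR2-, drawn from replicate 1 on the left to replicate 4 on the right, with a line at the mean of each group. *Mrps36*, *Mrpl32*, *Mrpl40*, *Mrpl16*, *Mrps6* and *Mrpl52* have no overlap between the groups, while *Mrps7* and *Mrps18b* lie lower in TNFR2+ Tregs with overlap.

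The stalk of the large subunit recruits translation factors. *Mrpl12*, its repeated protein, which also binds the mitochondrial RNA polymerase, measured 182, 196, 289 and 191 normalized counts in TNFR2+ and 100, 117, 116 and 206 in TNFR2- Tregs. TNFR2- replicate 4 reached the TNFR2+ libraries, and the log2 fold change of 0.70 ± 0.28 (SE) had a limma adjusted p of 0.155. For the other stalk members *Mrpl10* and *Mrpl11* the log2 fold changes were -0.04 ± 0.31 and 0.33 ± 0.45. Among the 6 proteins around the exit tunnel, where the nascent chain leaves, 2 were above 0 and 4 below, with a median of -0.09. *Mrpl45*, which contacts the inner membrane, was at 0.61 ± 0.34, *Mrpl22* at 1.08 ± 0.55, *Mrpl24* at -0.17 ± 0.19 and *Mrpl23* at -0.64 ± 0.48. *Mrpl47* and *Mrpl17* were at -0.10 ± 0.67 and -0.08 ± 0.40, with intervals of -1.55 to 1.34 and -0.94 to 0.79 that leave room for a change of either sign.

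At the ends of the large subunit ranking, *Mrpl34* (1.11 ± 0.54), *Mrpl53* (1.09 ± 1.04), *Mrpl22* and *Mrpl32* had the highest log2 fold changes. *Mrpl34* overlapped between the groups because TNFR2- replicate 3, at 52.2 normalized counts, lay above 3 TNFR2+ libraries. *Mrpl53*, the 1 member with a library at 0, had 29.0, 9.64, 12.6 and 22.4 normalized counts in TNFR2+ and 0, 5.37, 32.2 and 22.5 in TNFR2- Tregs. Its group means were close, at 18.4 and 15.0, and its log2 fold change ran from 0.07 to 1.75 with a library left out. The lowest were *Mrpl23*, *Mrpl48* (-0.64 ± 0.35), *Mrpl19* (-0.61 ± 0.34) and *Mrpl24*. Apart from *Mrpl32*, the smallest limma adjusted p among these was 0.242, for *Mrpl34*.

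In the small subunit, *Mrps6*, a bacterial counterpart, measured 278, 293, 233 and 252 normalized counts in TNFR2+ and 214, 114, 111 and 179 in TNFR2- Tregs. Every TNFR2+ library was above every TNFR2- library, with TNFR2- replicate 1 closest. The log2 fold change was 0.82 ± 0.26 (SE), with a 95% interval of 0.26 to 1.38 and an adjusted p of 0.0728 in limma. The exact permutation p of 0.0286 follows from the absence of overlap. Without TNFR2- replicate 1 the log2 fold change was 0.99 with a limma adjusted p of 0.0438. Over all alternatives the log2 fold change ran from 0.68 to 0.99 and the limma adjusted p from 0.0438 to 0.177. The gene overlaps *Slc5a3*, a myo-inositol transporter gene, and *Gm49711* on the same strand of chromosome 16, so that reads of shared exons could not be assigned with certainty.

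*Mrps36*, the dehydrogenase subunit, measured 70.8, 75.6, 74.2 and 63.6 normalized counts in TNFR2+ and 47.7, 58.3, 25.8 and 15.9 in TNFR2- Tregs. The TNFR2+ libraries lay close together and the TNFR2- libraries were spread out below them. Its log2 fold change was 1.09 ± 0.45 (SE; limma adjusted p = 0.167). *Mrps16* measured 78.7, 101, 62.3 and 83.9 against 33.9, 36.6, 43.3 and 65.8 normalized counts, with TNFR2- replicate 4 above TNFR2+ replicate 3, and a log2 fold change of 0.87 ± 0.37. *Mrps22*, a mitochondrion-specific protein, was at 0.83 ± 0.41.

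*Mrps11* had the highest log2 fold change of all members, 1.28 ± 0.63. It measured 33.3, 43.4, 196 and 51.8 normalized counts in TNFR2+ and 20.2, 37.0, 10.4 and 48.7 in TNFR2- Tregs. TNFR2+ replicate 3 stood far above all others, and without it the log2 fold change was 0.73. *Mrps11* starts head to head with *Mrpl46*, also a member, and the gene bodies overlap on opposite strands of chromosome 7. *Mrpl46* was at 0.62 ± 0.39 and in TNFR2+ replicate 3 had 129 normalized counts, the lowest of the TNFR2+ libraries.

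The lowest log2 fold changes of all members were those of *Mrps18b* and *Mrps7*. *Mrps18b* measured 116, 63.3, 42.1 and 44.8 normalized counts in TNFR2+ and 128, 170, 129 and 100 in TNFR2- Tregs. TNFR2+ replicate 1 lay above TNFR2- replicate 4, and the other TNFR2+ libraries were lower than all TNFR2- libraries. The log2 fold change was -1.07 ± 0.37 (SE), with a limma adjusted p of 0.0944. Without TNFR2+ replicate 1 it was -1.38 with a limma adjusted p of 0.0423. Over all alternatives the log2 fold change ran from -1.38 to -0.90 and the limma adjusted p from 0.0423 to 0.229. *Mrps7*, a bacterial counterpart in the head of the small subunit, measured 154, 109, 71.9 and 52.7 against 241, 159, 136 and 133 normalized counts, with a log2 fold change of -0.85 ± 0.36 (SE; limma adjusted p = 0.171). TNFR2+ replicate 1 was the highest of its group in both genes. Within the small subunit, *Mrps10* (-0.45 ± 0.29) and *Mrps25* (-0.41 ± 0.48) came next.

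*Mrps18b* has 2 paralogs, which share descent from a single bacterial protein. In the counts by origin above, *Mrps18c* was taken as the bacterial counterpart, and *Mrps18a* and *Mrps18b* were counted as specific to mitochondria. *Mrps18a*, in the large subunit, had a log2 fold change of 0.12 ± 0.26 (95% interval -0.44 to 0.69), and *Mrps18c*, in the small subunit, one of 0.19 ± 0.35 (95% interval -0.57 to 0.95). *Mrps30*, in the large subunit, had -0.02 ± 0.20. The difference between *Mrps18b* and its paralogs was not tested.

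Annotated near-identical copies on the same strand (at least 95% identity over at least 50% of the transcript) existed for 7 members, and for 2 of them the copy was in the table. For *Mrpl53* the sum with the read-through gene *Gm42688* had a log2 fold change of -0.20 in place of 1.09. *Mrpl23* and its pseudogene *Mrpl23-ps1* summed to 110 normalized counts on average in either group, and the log2 fold change of the sum was -0.14 in place of -0.64. The split of reads between these members and their copies is uncertain. A further 3 members overlap a gene on the opposite strand over at least 50% of the transcript, *Mrps18b* with the antisense gene *Gm16279*, *Mrps25* with *Nr2c2* and *Mrps34* with *Mapk8ip3*. The libraries were stranded, but whether the quantification used the strand is not given in the sources used here. *Gm16279* averaged 213 and 247 normalized counts in TNFR2+ and TNFR2- Tregs, against 66.5 and 132 for *Mrps18b*.

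Levels were compared between genes as the mean normalized count over the 8 libraries per kb of the longest annotated coding transcript. They spanned 68.7-fold, from 14.5 for *Mrpl11* to 994 for *Mrpl52*. The medians of the subunits were alike, 74.8 per kb for the large and 75.2 per kb for the small. After *Mrpl52* the highest large subunit members were *Mrpl33* (357 per kb) and *Mrpl13* (330 per kb), and the highest small subunit members were *Mrps6* (247 per kb), *Mrps9* (225 per kb) and *Mrps15* (221 per kb). At the low end stood *Mrpl11*, *Mrpl47* (15.1 per kb) and *Mrpl50* (18.4 per kb), and *Mrps17* (18.2 per kb), *Mrps16* (24.6 per kb) and *Mrps25* (29.5 per kb). The members' transcripts ran from 463 to 7300 bases with a median of 1328, and a gene whose longest isoform is rarely used appears lower on this scale. For the 35 members with a mean under 100 normalized counts the median log2 fold change was 0.28, and for the other 43 it was 0.09. The median standard error was 0.44 for those 35 and 0.28 for the other 43. The same split was not made for all genes tested, so it cannot be called particular to the members.

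**Figure D4:**
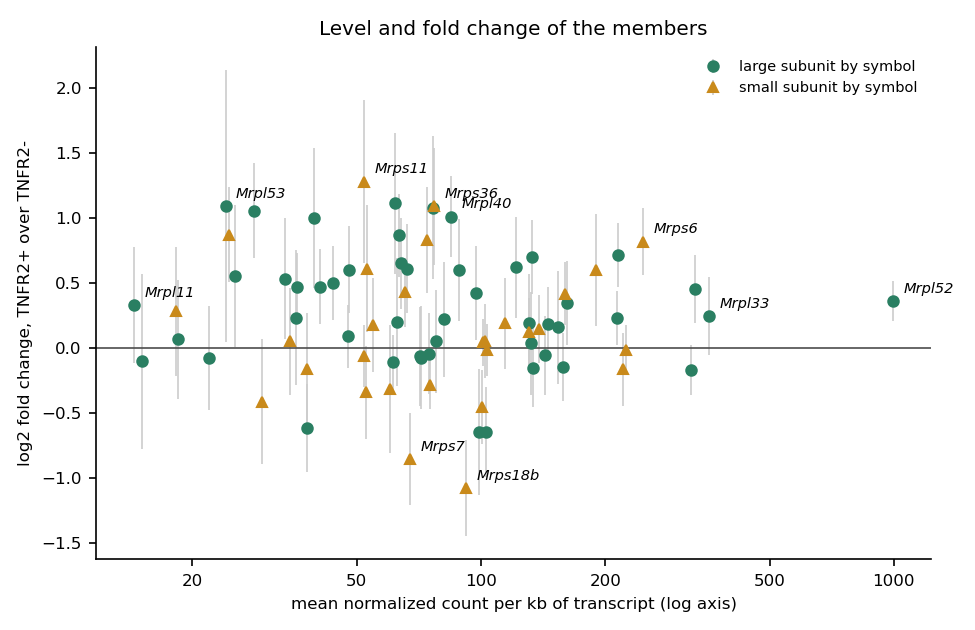
Mean normalized count per kb of transcript over the 8 libraries (log axis) against the log2 fold change (TNFR2+ over TNFR2-), with bars of 1 standard error, circles for large and triangles for small subunit members. *Mrpl52* stands alone at 994 per kb, and the bars are wider among members of low level, such as *Mrpl53*.

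Library by library, TNFR2+ replicate 2 was the highest of the 8 libraries in 25 of the 78 members, and TNFR2- replicates 1 and 3 were the lowest in 16 and 17. Over all genes tested, TNFR2+ replicate 2 was the highest in 11.8%, and TNFR2- replicates 1 and 3 the lowest in 11.7% and 12.4%. The summed members took 0.115%, 0.130%, 0.122% and 0.118% of all normalized counts in TNFR2+ replicates 1 to 4 and 0.0945%, 0.0976%, 0.103% and 0.107% in TNFR2- replicates 1 to 4, without overlap. Leaving the mitochondrially encoded genes and the abundant *Gm26917* and *Gm42418* out of the total gave 0.136% to 0.161% and 0.116% to 0.137%, which overlapped. The members' summed normalized counts, 11013 to 13358 in TNFR2+ and 10022 to 12092 in TNFR2- libraries, also overlapped, while the totals over all genes did not.

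The promoters of the members were read for 3 motifs of factors known to act on nuclear genes for mitochondrial proteins, on both strands of a window from 250 bases before to 50 after the annotated start. RefSeq promoter windows (build GRCm38.p6) matched 69 of the 78 members. The core of the NRF1 motif (GCATGCGC) was in 8 of the 69 (11.6%) against 3.93% of the 17491 protein-coding genes and 3.05% of all 27025 genes with a window. The ETS motif bound by GABP (CCGGAAGT) was in 12 (17.4% against 5.69% and 4.31%), and the YY1 motif (AAGATGGCG) was in 8 (11.6% against 2.14% and 1.64%). The letters of the NRF1 and YY1 motifs can share a few bases at their ends, and *Mrpl33* and *Mrps27* each held a pair of motifs. At least 1 of them was in 26 members, or 37.7%, against 11.0% of protein-coding and 8.47% of all genes, and in 18 of 43 large and 8 of 26 small subunit members. The log2 fold change was above 0 in 18 of the 26 members with a motif (median 0.24) and in 30 of the 43 without (median 0.22). A match describes letters in a window and is not a site.

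The following windows are from members with log2 fold changes of 1.08, 0.83 and 0.87, chosen after their values were seen, to show a promoter with an NRF1 core, one with an ETS motif and one with neither. Each is the stretch upstream of the start that lies in no annotated gene, 5′ to 3′ on the strand of the gene, with motif letters in capitals. *Mrpl22* is at chr11:58171414-58171660 on the plus strand, *Mrps22* at chr9:98601680-98601929 on the minus strand and *Mrpl16* at chr19:11770165-11770390 on the plus strand.
*Mrpl22*: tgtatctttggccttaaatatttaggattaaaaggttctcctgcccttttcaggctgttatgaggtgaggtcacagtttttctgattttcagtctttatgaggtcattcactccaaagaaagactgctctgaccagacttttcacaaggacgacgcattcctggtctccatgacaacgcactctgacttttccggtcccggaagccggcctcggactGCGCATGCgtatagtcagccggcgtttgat
*Mrps22*: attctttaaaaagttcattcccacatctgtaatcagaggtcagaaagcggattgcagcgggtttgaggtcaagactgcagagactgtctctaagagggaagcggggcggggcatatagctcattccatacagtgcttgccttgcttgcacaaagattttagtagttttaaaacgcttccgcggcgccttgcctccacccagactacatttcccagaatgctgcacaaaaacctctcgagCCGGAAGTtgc
*Mrpl16*: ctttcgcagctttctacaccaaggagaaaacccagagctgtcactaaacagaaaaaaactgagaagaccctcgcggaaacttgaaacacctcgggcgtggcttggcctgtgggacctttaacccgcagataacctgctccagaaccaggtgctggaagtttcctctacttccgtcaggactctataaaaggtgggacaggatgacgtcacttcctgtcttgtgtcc
The NRF1 core of *Mrpl22* and the ETS motif of *Mrps22* lie close to the start of the gene, and *Mrpl16*, whose groups did not overlap, held none of the 3 motifs in its window.

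Members shared a further feature that the naming rule did not use. A protein-coding gene started on the opposite strand within 1000 bases of the start of 33 of the 78 members (42.3%), against 1938 of 11532 tested protein-coding genes (16.8%). Of the 31 neighbours tested, 1 passed the threshold, where 4.52% of all genes were called higher and 3.39% lower. It was *Ncapd2*, a condensin subunit that starts 100 bases from *Mrpl51*, with a log2 fold change of 1.31 and a limma adjusted p of 0.00785. *Hira*, a histone chaperone that starts 175 bases from *Mrpl40*, was at -0.65 ± 0.22 while *Mrpl40* was at 1.01. The neighbour had the sign of the member in 21 of 31 cases, the pair of *Mrps11* and *Mrpl46* being counted from both sides. This share was not counted for pairs of other genes, so it has no background to be read against. Whether the pairs share regulation was not tested.

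The other parts of the mitochondrial translation system were set beside the members. The 5 ribosomal proteins with other names, among them the GTP-binding *Dap3*, had a median log2 fold change of 0.15, with 4 above 0 and 0 with an unadjusted p under 0.05. The ribosomal RNAs they bind are encoded in mitochondrial DNA. The small subunit RNA *mt-Rnr1* was at -0.29 ± 0.11 (SE; limma adjusted p = 0.131) and the large subunit RNA *mt-Rnr2* at -0.18 ± 0.11. The libraries were made with a total RNA kit, and how much ribosomal RNA was removed in each library is unknown. The values of these RNAs may therefore not follow their levels in the cells. *mt-Rnr1* measured 260712, 359063, 295232 and 324564 normalized counts in TNFR2+ and 351201, 436734, 361477 and 359925 in TNFR2- Tregs, with TNFR2+ replicate 2 inside the TNFR2- range. Of the 13 mRNAs that this ribosome translates 12 were below 0, with a median of -0.28, 0 past the threshold and 2 lower at an unadjusted p under 0.05, *mt-Co1* and *mt-Atp6*. The medians of these mRNAs ran from -0.39 to -0.16 over the alternatives, all below 0.

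Among the 15 factors of mitochondrial translation, 9 were above 0 and 0 passed the threshold, with 3 genes higher and 1 lower before adjustment (p under 0.05). Their median of 0.42 became -0.05 without TNFR2- replicate 4, 2 were called higher under total scaling without mitochondrially encoded genes, 1 was called higher with a pseudocount of 10 or a minimum mean of 50, and 1 was called lower without TNFR2+ replicate 1. *Tufm*, the elongation factor that brings tRNAs to the ribosome, measured 342, 480, 484 and 334 normalized counts in TNFR2+ and 247, 204, 260 and 297 in TNFR2- Tregs, and had a log2 fold change of 0.69 ± 0.21 (SE; limma adjusted p = 0.0610). *Gfm1*, the translocation factor, was at 0.57 ± 0.20 (adjusted p = 0.0962 in limma), and *Slirp*, which stabilizes mitochondrial mRNAs together with *Lrpprc*, at 2.42 ± 0.72 (adjusted p = 0.0574 in limma). Neither gene overlapped between the groups, and *Slirp* was low throughout, with at most 61.6 normalized counts in a library. *Mtif3*, an initiation factor, was at -1.97 ± 0.71 and overlapped.

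The 28 assembly factors had 13 above 0 and a median of -0.01, with 0 calls at an adjusted or unadjusted p under 0.05. Of the 17 mitochondrial aminoacyl-tRNA synthetases, which charge the organelle's tRNAs, 11 were below 0 with a median of -0.32. None of these 17 passed the threshold, while before adjustment 1 was higher and 5 were lower (p under 0.05). A minimum mean of 50, and leaving out TNFR2+ replicate 1 or TNFR2- replicate 3, each called 1 of them lower. *Mars2*, the methionyl-tRNA synthetase, measured 201, 124, 110 and 102 normalized counts in TNFR2+ and 248, 265, 242 and 206 in TNFR2- Tregs, without overlap, and had a log2 fold change of -0.89 ± 0.26 (SE; limma adjusted p = 0.0547). *Ears2* was at -1.17 ± 0.39, *Wars2* at -1.47 ± 0.64, *Tars2* at -0.41 ± 0.18 and *Lars2* at -0.32 ± 0.13, and *Yars2* was at 0.98 ± 0.40.

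Of the genes of mitochondrial transcription and its regulators 16 of 17 were tested, 11 were below 0 and 1 passed the threshold. *Polg2*, the accessory subunit of the mitochondrial DNA polymerase, fell, with 367, 488, 495 and 449 normalized counts in TNFR2+ and 922, 1042, 539 and 642 in TNFR2- Tregs. The groups did not overlap, and the log2 fold change was -0.76 ± 0.21 (SE; limma adjusted p = 0.0451). Of 17 alternatives 7 kept this call, and the adjusted p ran from 0.0130 to 0.136, with each library left out in turn except TNFR2- replicate 3 ending it. *Polg*, its catalytic subunit, was at -0.46 ± 0.15 (SE; limma adjusted p = 0.0780).

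**Figure D5:**
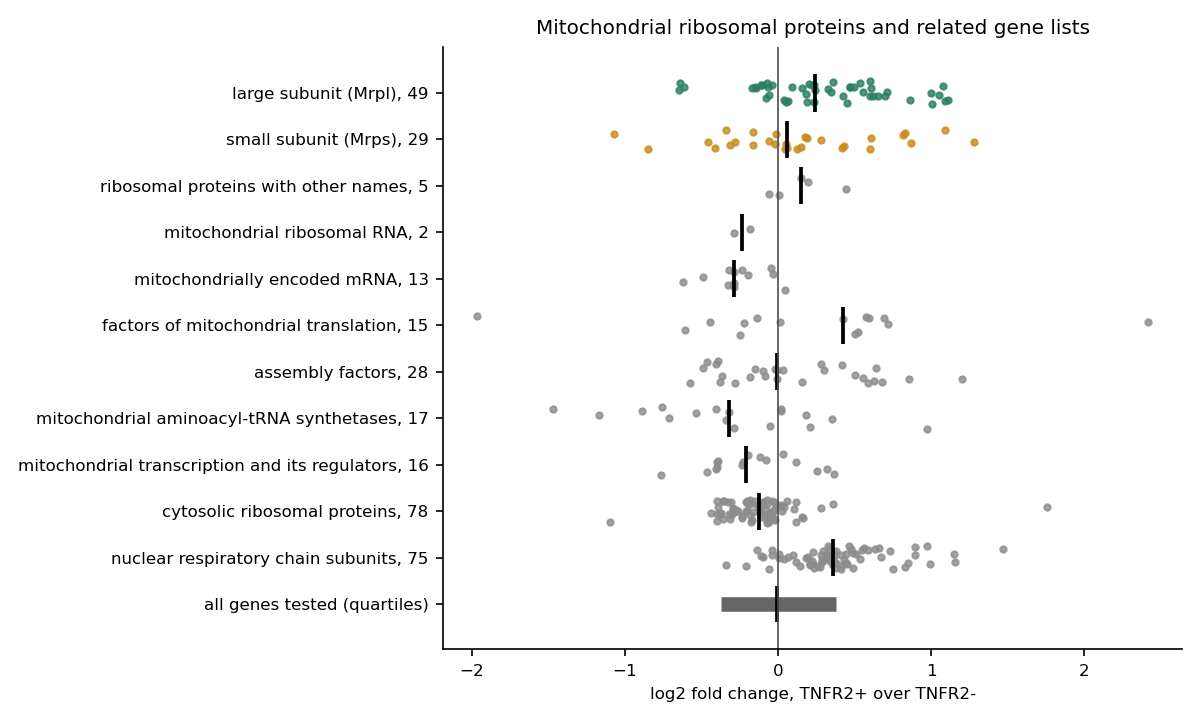
Log2 fold changes (TNFR2+ over TNFR2-) of the large and small subunit members and of related gene lists, 1 point per gene, with a vertical line at each median and the number of genes beside the name. The bar at the bottom spans the quartiles of all genes tested; the nuclear respiratory chain subunits have a median of 0.36 and the mitochondrially encoded mRNAs one of -0.28.

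Against the ribosome of the cytosol, the mitochondrial ribosomal proteins stood on the other side of 0. The 78 cytosolic ribosomal proteins had a median of -0.12, with 13 above 0 and 65 below, and 0 passed the threshold in limma, with 2 higher and 10 lower before adjustment (p under 0.05). Without TNFR2- replicate 4 their median was 0.01, with 42 above 0, so the direction rests on that library. The scaling mattered too, and under total scaling without mitochondrially encoded genes their median was -0.03, with 32 above 0. The nuclear-encoded subunits of the respiratory chain, other than the *Sdh* genes, are assembled with products of the mitochondrial ribosome. With the *Sdh* genes included, these subunits had a median of 0.36 over 75 genes, with 67 above 0. None passed the threshold, and before adjustment 12 were higher and 0 lower (p under 0.05 in limma). Their median stayed between 0.29 and 0.45 under every alternative run. The count past the threshold was 5 when libraries were scaled to their total without mitochondrially encoded genes, 2 with a minimum mean of 50, and 3 without TNFR2- replicate 4, 2 without TNFR2- replicate 3 and 1 without TNFR2+ replicate 1 or 3, all higher. For these lists and those above, the background at an unadjusted limma p under 0.05 was 12.3% of all genes higher and 10.7% lower. The differences between these lists were not tested.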

How the data were processed

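RNA of sorted spleen Tregs was sequenced in 4 TNFR2+ and 4 TNFR2- libraries. Per the labels and methods, the authors trimmed stranded total RNA reads, checked them with FastQC 0.11.8, estimated transcript abundance with Salmon 1.3.0 on GRCm38 and normalized gene counts with DESeq2 1.28 in R 4.0. The deposited values are this normalized signal per gene, not raw reads, so depth per gene is unknown and no count model was fitted. No column of another sample was present.

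Symbols came from the supplied gene names, coordinates and transcripts from GENCODE M21 (GRCm38). A pseudocount of 1 was added before taking log2. The test covered the 13990 genes averaging 10 or more normalized counts, and used limma 3.58.1 in R 4.3.3 (intensity trend, two-sided, Benjamini-Hochberg over all genes tested, threshold 0.05 on the adjusted p). All 78 members passed this filter, the lowest at a mean of 16.7. Fold changes are differences of mean values on that scale. The pseudocount pulls changes of low genes toward 0, but a single library near 0 can enlarge them, as for *Mrpl53*. Single members were also given an exact permutation test over 70 relabellings. Near-identical transcripts were searched on both strands with blastn 2.17.0, and the procedure was tested on simulated data.

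Named members were those with a p under 0.05 and no overlap, the 4 highest and 4 lowest log2 fold changes and the 3 highest and 3 lowest levels per subunit, and the stalk, exit tunnel, *Mrps18*, *Mrps30* and *Mrps36* genes; from other lists, genes past the threshold and up to 4 others by p. *Mrpl18*, *Mrpl46*, *Mrpl51*, *Mrps34* and some list genes were named after their values were seen. Alternatives were other pseudocounts, filters, scalings and variance moderation, a replicate block, each library left out and members without a near-identical transcript. The S6 kinases were removed from the cytosolic list. Members and lists were chosen with earlier results of these data known.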

Additional observations from a re-analysis of the deposited data

Results flagged for a closer look

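In 4 cases among 88 groups of 4 libraries checked, 1 library lay far from the other 3 by Dixon's test at the 95% level. Chance alone flags about 5% of groups. *Mrpl40* in TNFR2+ replicate 2 was at 232 normalized counts, above the others of its group at 112 to 132. *Mrpl12* in TNFR2+ replicate 3 was at 289, against 182 to 196. *Mrpl12* in TNFR2- replicate 4 was at 206, against 100 to 117. *Mrps11* in TNFR2+ replicate 3 was at 196, against 33.3 to 51.8.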

How the results depend on the processing

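The median log2 fold change of the members (0.20) stayed between 0.14 and 0.28 under every alternative. The count of members higher past the threshold (0) was 1 without the intensity trend (*Mrpl16*, adjusted p = 0.0490 in limma), 2 when libraries were scaled to their total without mitochondrially encoded genes (*Mrpl40*, adjusted p = 0.0444, and *Mrps6*, adjusted p = 0.0488, in limma), and 0 to 1 with a library left out (*Mrps6* without TNFR2- replicate 1, adjusted p = 0.0438 in limma). The count lower was 0 to 1 with a library left out (*Mrps18b* at -1.38 without TNFR2+ replicate 1, adjusted p = 0.0423 in limma). The cause was not tested. The large minus small difference of medians (0.19) ran from 0.13 without TNFR2- replicate 1 to 0.31 without TNFR2+ replicate 1, and was 0.29 without TNFR2- replicate 4.

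Signs near 0 turned. Scaling to that total, which moved the median of all genes from -0.01 to 0.08, put *Mrpl10* at 0.046, *Mrpl17* at 0.013, *Mrps30* at 0.072 and *Mrps9* at 0.077, and a pseudocount of 10 put *Mrpl47* at 0.0097. With a library left out, *Mrpl10* ran from -0.19 to 0.12, *Mrpl17* from -0.46 to 0.14, *Mrpl33* from -0.0016 to 0.47, *Mrpl47* from -0.51 to 0.65, *Mrpl50* from -0.15 to 0.31, *Mrps15* from -0.38 to 0.060, *Mrps17* from -0.11 to 0.74, *Mrps18c* from -0.033 to 0.37, *Mrps25* from -0.87 to 0.0052, *Mrps30* from -0.11 to 0.12 and *Mrps9* from -0.077 to 0.064. With the replicate number as a block, 0 members were called, the median stayed at 0.20 and the genes called went from 1107 to 1183. The block also called lower 2 of the 13 mitochondrially encoded mRNAs, 1 of the 2 mitochondrial ribosomal RNAs and 2 of the 78 cytosolic ribosomal proteins, each 0 without it. Deviations of same-numbered libraries correlated at -0.039 to 0.0005 over the genes tested. The sources do not say whether same-numbered libraries came from the same mice, and these correlations cannot decide it. Depth per gene is unknown, and intervals cover the spread of 4 libraries only.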
